A study of Rattus norvegicus with 12 samples.

Results

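Brain-derived neurotrophic factor (Bdnf) and 3 neurotrophin receptor genes, Ntrk2, Ntrk3 and Ngfr, were followed through the deep and superficial sublayers of hippocampal area CA1 in chronically epileptic and control rats. The 4 genes were taken by their Ensembl identifiers, ENSRNOG00000047466 (Bdnf), ENSRNOG00000018839 (Ntrk2), ENSRNOG00000018674 (Ntrk3) and ENSRNOG00000005392 (Ngfr), from the 32662 identifiers of the count tables, and all 4 were present. Adult male Wistar rats, labelled as 45 to 50 days old and 180 to 200 g, were used for 4 groups of 3 libraries. That age is taken as the age at treatment, not at killing, which came 6 to 8 weeks later. The epileptic groups, superficial and deep, came from 3 rats that had received hourly intraperitoneal kainate at 5 mg/kg until status epilepticus, which was stopped with diazepam at 4 mg/kg, and that were killed 6 to 8 weeks later. The control groups, superficial and deep, came from 3 rats that had received vehicle and otherwise similar treatment, without a separate statement on whether diazepam was among it. The labels list the 6 to 8 weeks for the control groups too. Seizures were witnessed or recorded in some of the epileptic animals, per the labels' protocols. Each rat gave both sublayers, cut by laser from 20 µm sections of the pyramidal cell layer, so the 12 libraries stand for 6 animals.

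Neurotrophins are secreted proteins that act on 2 kinds of receptor. BDNF binds TrkB, the receptor tyrosine kinase encoded by Ntrk2, and neurotrophin-3 binds TrkC, encoded by Ntrk3, while p75NTR, encoded by Ngfr, binds all neurotrophins and, with more affinity, their unprocessed precursors. In the hippocampus BDNF made by excitatory neurons strengthens synapses through TrkB, and its transcription rises with neuronal activity and after acute seizures. Ntrk2 is transcribed both as the full-length kinase, found in neurons, and as a truncated receptor that is abundant in astrocytes. A count per gene adds these forms together, as it does the many Bdnf transcripts that start at alternative first exons.

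RefSeq listed 6 start-site windows of 300 bases for Bdnf on build GRCr8, and a count per gene cannot say from which of them the RNA came. Only 1 of the 6 held the letters CGTCA (or TGACG on the other strand), the half-site of the cyclic AMP response element bound by the activity-regulated factor CREB. The full palindrome TGACGTCA, which contains that half-site on both strands, was in none of them. For comparison, the half-site was in 21.2% and the palindrome in 1.83% of all 33469 windows in the same RefSeq table. Holding the half-site in 1 of 6 windows is near the share over all windows, so the match does not single out Bdnf, and binding was not tested. Windows 5 and 6 overlap, so the 6 are not fully separate. The window with the half-site is printed as the only 1 of the 6 that held these letters. It lies at chr3:116637608-116637907 on the plus strand of GRCr8, has a GC content of 50.0% and 15 CpG dinucleotides, and is given 5′ to 3′ with the half-site in capitals, which begins 35 bases upstream of the listed start.
Bdnf, window 4 of 6: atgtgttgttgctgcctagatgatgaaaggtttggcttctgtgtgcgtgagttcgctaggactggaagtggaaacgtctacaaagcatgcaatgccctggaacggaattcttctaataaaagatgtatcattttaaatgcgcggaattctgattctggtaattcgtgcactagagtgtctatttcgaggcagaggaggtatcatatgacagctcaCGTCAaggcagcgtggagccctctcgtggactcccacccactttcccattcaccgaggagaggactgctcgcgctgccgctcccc

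The libraries held 20623196 to 25893962 reads assigned to genes in epileptic rats and 16135358 to 19550582 in control rats, without overlap. The share of alignments outside annotated exons was 25.3 to 26.7% in both libraries of epileptic rat 2 and 22.3 to 25.6% in those of epileptic rat 3, and 37.7 to 43.0% in those of epileptic rat 1, against 35.8 to 44.0% in the 6 control libraries. The first principal component of all identifiers (50.6% of the variance) likewise placed epileptic rats 2 and 3 apart from epileptic rat 1 and controls. Epileptic rats 2 and 3 lay at 28.4 and 71.4 in superficial and 22 and 55.1 in deep CA1. Epileptic rat 1 lay at −15.7 and −12.7, and the controls at −36.6 to −11.9. The second component (14.03% of the variance) gave another order, with the controls at 6.82 to 17.1 and epileptic rat 3 within that range. There epileptic rat 1 lay furthest from the controls, at −30.7 in superficial and −30.4 in deep CA1. Epileptic rat 2 lay at −18.8 and −18.4. Levels are given as CPM, counts relative to the library size after scaling by the trimmed mean of M-values (TMM), and they are compared between samples, never between genes, because transcript lengths were not used. Lists of other neurotrophin pathway genes and of cell type markers, written by gene symbol, were not analysed here, since the gene table in use gave a symbol for 0 of the 32662 identifiers. The labelled tissue was therefore not checked against its markers. In tissue of mixed cells a lower count may come from fewer cells of a type or from less RNA per cell, and these cannot be told apart here.

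Bdnf, the ligand, was detected in every library at a low to moderate level, and neither sublayer nor epilepsy shifted it beyond the spread between rats. In superficial CA1 of epileptic rats 1, 2 and 3 it stood at 22.9, 36.4 and 19.6 CPM (493, 893 and 415 reads). Their deep libraries held 27.1, 29.0 and 26.8 CPM. In control rats 1, 2 and 3 the superficial libraries held 30.2, 27.9 and 28.4 CPM and the deep libraries 29.1, 26.8 and 24.2 CPM. The superficial library of epileptic rat 2 was the highest of the 12, and those of epileptic rats 1 and 3 were the lowest.

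In superficial epileptic libraries Bdnf varied more than Ntrk2 and Ntrk3, whose coefficients of variation there were 7.61% and 5.90%. Its coefficient of variation was 33.9% in superficial epileptic libraries, against 4.31% in superficial control libraries, while in deep CA1 it was 4.23% in epileptic and 9.23% in control libraries. Counting error alone gives 3.35 to 4.96% at these depths. Over the 9396 identifiers with a mean log2 CPM of at least 3, the median coefficient of variation in superficial epileptic libraries was 10.7%, and 4.34% of the identifiers varied more than Bdnf there. This is a description of 3 animals and was not tested.

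**Figure D1:**
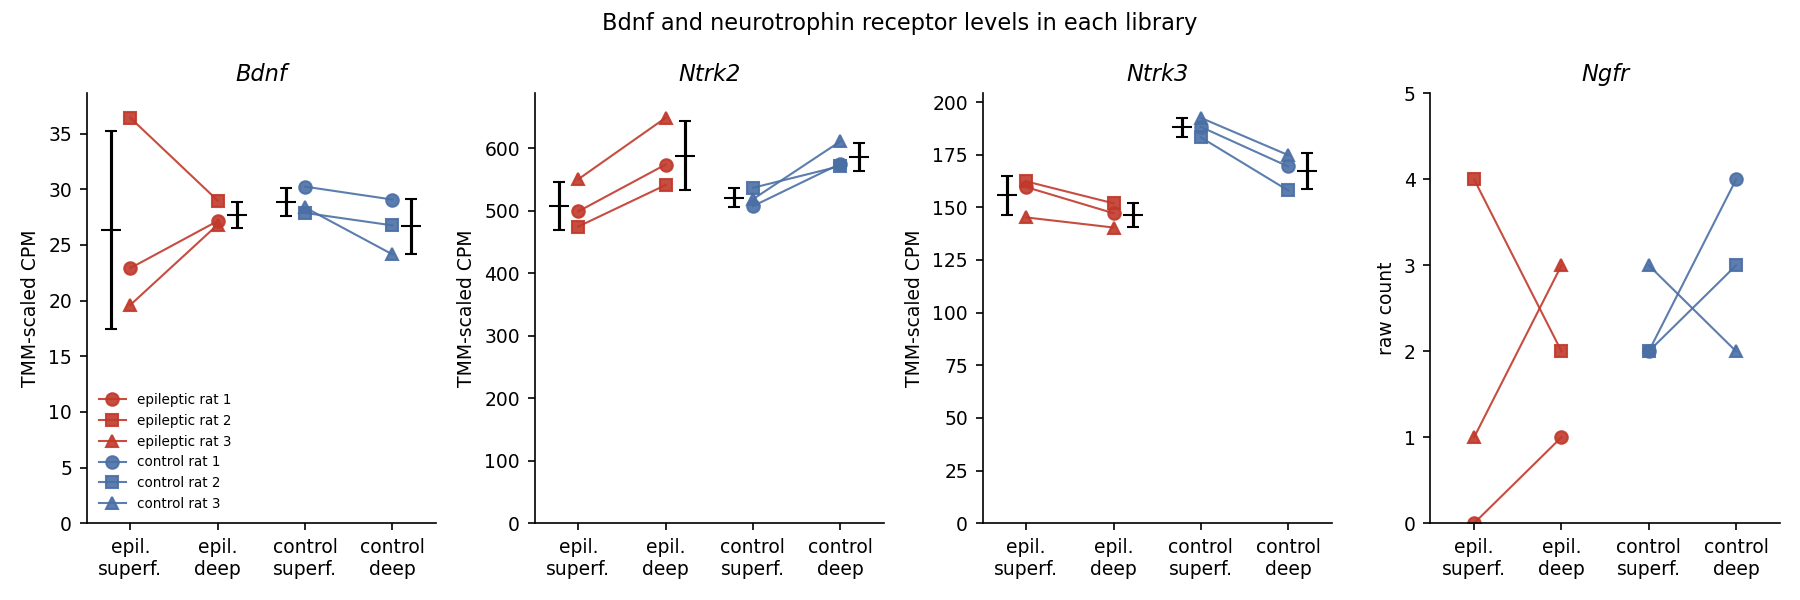
Level of each gene in each of the 12 libraries, as TMM-scaled CPM for Bdnf, Ntrk2 and Ntrk3 and as raw read counts for Ngfr. Lines join the superficial and deep library of a rat (red epileptic, blue control), and black bars give the mean and SD of a group (n = 3). Bdnf runs from 19.6 to 36.4 CPM in superficial epileptic libraries, Ntrk2 slopes up and Ntrk3 down towards the deep library in all 6 rats, and Ngfr never exceeds 4 reads.

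Across sublayers Bdnf changed sign between animals. The superficial library was lower than the deep one in epileptic rats 1 and 3, by a log2 CPM difference of −0.24 and −0.45, and higher in epileptic rat 2, by 0.33. In control rats 1, 2 and 3 it was slightly higher in the superficial library each time, by 0.06, 0.06 and 0.23. edgeR's quasi-likelihood test with each rat as a block gave a superficial over deep log2 fold change of −0.10 in epileptic rats (SE 0.11, 95% interval −0.35 to 0.14, adjusted p = 0.619) and 0.11 in control rats (SE 0.12, interval −0.13 to 0.36, adjusted p = 0.612). Over all 6 rats it was 0.0055 (SE 0.08, adjusted p = 0.972). The difference between epileptic and control rats in that sublayer difference was −0.22 with an interval of −0.56 to 0.13 (adjusted p = 0.871). That value was −0.46 without epileptic rat 2 and −0.050 without epileptic rat 3 (unadjusted p = 0.00278 and 0.709, adjusted p = 0.601 and 0.958). The epileptic estimate rests on single animals: it was 0.06 without epileptic rat 3 and −0.35 without epileptic rat 2 (adjusted p = 0.747 and 0.0696).

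Bdnf likewise did not pass between epileptic and control rats in either sublayer. Superficial CA1 averaged 26.3 ± 8.91 CPM in epileptic and 28.8 ± 1.24 CPM in control rats (SD, n = 3 each; log2 fold change −0.11, interval −0.62 to 0.39, adjusted p = 0.801). In deep CA1 the means were 27.6 ± 1.17 CPM in epileptic and 26.7 ± 2.46 CPM in control rats (SD, n = 3 each; log2 fold change 0.05, interval −0.18 to 0.29, adjusted p = 0.858). The groups overlapped in both sublayers. The superficial value turned positive without epileptic rat 3 (0.05, adjusted p = 0.918) and was −0.42 without epileptic rat 2 (adjusted p = 0.317). The deep value was −0.01 without control rat 3 and 0.12 without control rat 1.

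Ntrk2, the gene of the BDNF receptor TrkB, was lower in superficial than in deep CA1 in each of the 6 rats. Its superficial libraries held 499, 475 and 550 CPM in epileptic rats 1, 2 and 3, against 574, 541 and 649 CPM in their deep libraries. In control rats 1, 2 and 3 the superficial libraries held 507, 537 and 518 CPM, against 575, 571 and 611 CPM in the deep libraries. Expressed per rat, the superficial level differed from the deep one by −15.2 to −12.3% in epileptic rats and by −15.2 to −6.08% in control rats.

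The Ntrk2 difference passed the test in both conditions. The superficial over deep log2 fold change was −0.21 in epileptic rats (SE 0.05, adjusted p = 0.0115) and −0.17 in control rats (SE 0.05, adjusted p = 0.0382) in edgeR's quasi-likelihood test. Of all 14791 identifiers tested, 5.00% were called lower and 5.04% higher in superficial CA1 of epileptic rats, and 4.18% lower and 4.26% higher in that of control rats. Over all 6 rats the value was −0.19 (SE 0.03, interval −0.26 to −0.12, adjusted p = 0.00104), where 9.97% of identifiers were called lower in superficial CA1. Larger absolute changes were fitted for 29.4% of identifiers, and 10.5% of identifiers were lower in the superficial library of all 6 rats. An exact sign-flip permutation test over the 6 rats gave p = 0.031, the smallest two-sided value that 6 pairs allow. The call over 6 rats held without any 1 rat (adjusted p = 0.000449 to 0.0139). The call in control rats was lost without epileptic rat 2 and without any 1 control rat (0.0655 to 0.325), and that in epileptic rats without epileptic rat 2 (0.0748).

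Between conditions Ntrk2 did not pass in either sublayer. It averaged 508 ± 38.7 CPM in epileptic and 521 ± 14.8 CPM in control superficial CA1 (SD, n = 3 each; log2 fold change −0.02, interval −0.23 to 0.19, adjusted p = 0.936). In deep CA1 it averaged 588 ± 55.2 CPM in epileptic and 586 ± 21.8 CPM in control rats (SD, n = 3 each; log2 fold change 0.0075, interval −0.21 to 0.23, adjusted p = 0.982). Epileptic rat 3 was the highest and epileptic rat 2 the lowest of the 6 rats in both sublayers, so the epileptic values surrounded the control ones. The sublayer difference of Ntrk2 differed between epileptic and control rats by −0.04 (interval −0.18 to 0.10, adjusted p = 0.957).

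Ntrk3, the gene of the neurotrophin-3 receptor TrkC, ran the other way and was higher in superficial than in deep CA1 in each of the 6 rats. Epileptic rats 1, 2 and 3 had 160, 162 and 145 CPM in the superficial and 147, 152 and 140 CPM in the deep library. Control rats 1, 2 and 3 had 188, 183 and 193 CPM in the superficial and 169, 158 and 175 CPM in the deep library. The superficial excess was 3.44 to 8.40% in epileptic rats and 10.1 to 16.0% in control rats, and the ranges of the 2 conditions did not overlap. The epileptic rats all lay below the control rats in this way for 6.06% of identifiers.

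Over all 6 rats the superficial over deep log2 fold change of Ntrk3 was 0.13 (SE 0.03, interval 0.05 to 0.20, adjusted p = 0.0165 with edgeR), where 10.4% of identifiers were called higher. The exact sign-flip permutation test gave p = 0.031, again the smallest possible, and 11.0% of all identifiers tested were higher in the superficial library of all 6 rats. The edgeR call was lost without epileptic rat 2 or without control rat 1, 2 or 3 (adjusted p = 0.0701, 0.0581, 0.0625 and 0.0553), at log2 fold changes of 0.12 to 0.13. In control rats alone the value was 0.17 (SE 0.05, adjusted p = 0.0437) and in epileptic rats 0.09 (SE 0.05, interval −0.02 to 0.19, adjusted p = 0.281). The control call was lost with RLE size factors (adjusted p = 0.0615), with DESeq2 (0.107), without epileptic rat 2 and without any 1 control rat (0.0902 to 0.239).

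The smaller Ntrk3 sublayer difference in epileptic rats did not pass a test of its own. The difference between the 2 log2 fold changes was −0.08 (SE 0.07, interval −0.23 to 0.07, adjusted p = 0.894). Set per rat, the superficial minus deep log2 CPM was 0.12, 0.09 and 0.05 in epileptic rats 1, 2 and 3 and 0.15, 0.21 and 0.14 in control rats 1, 2 and 3. An exact permutation of the 3 against 3 rats gave p = 0.1, the smallest value it can reach, and p = 0.4 for a difference of −0.03 when libraries were scaled by total gene counts. For this comparison edgeR called 0 of 14791 identifiers (0.00%), with 976 (6.60%) at an unadjusted p below 0.05, DESeq2 called 2 and limma-voom with sample quality weights 107. None of the neurotrophin genes was among the calls of these 3 fits.

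**Figure D2:**
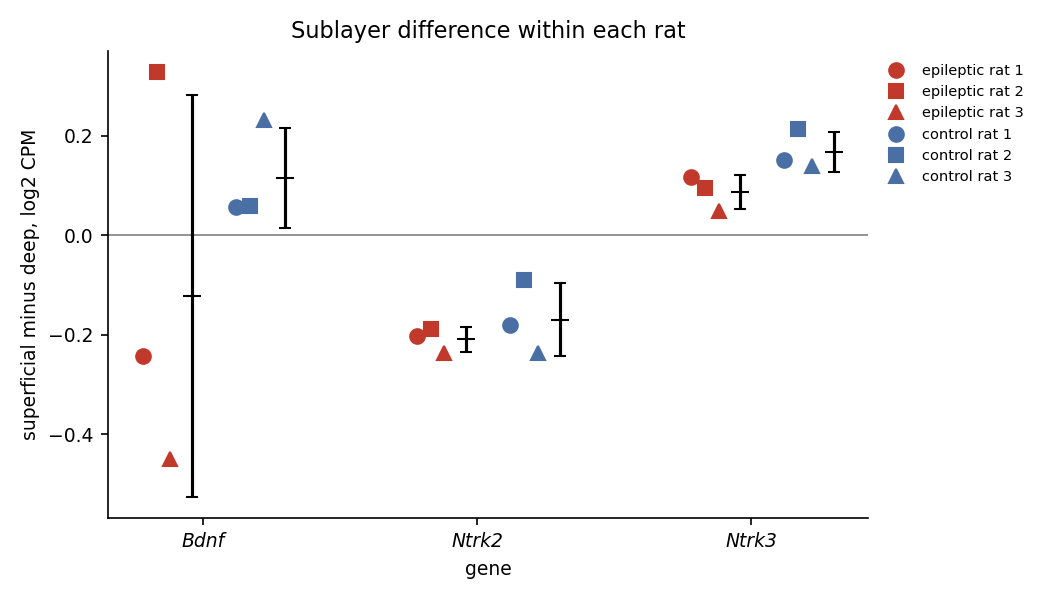
Superficial minus deep log2 CPM within each rat for Bdnf, Ntrk2 and Ntrk3, with epileptic rats in red to the left of control rats in blue and the mean and SD of each condition in black (n = 3). Ntrk2 lies below 0 and Ntrk3 above 0 in all 6 rats, whereas Bdnf spreads from −0.45 to 0.33 in epileptic rats.

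Because Ntrk2 and Ntrk3 differed in opposite directions, their ratio within a library, which no scaling of library size can alter, separated the sublayers further. Superficial libraries held 32.0, 34.2 and 26.4 Ntrk3 reads per 100 Ntrk2 reads in epileptic rats 1, 2 and 3, against 25.7, 28.1 and 21.6 in their deep libraries. In control rats 1, 2 and 3 there were 37.1, 34.1 and 37.1 in superficial libraries, against 29.5, 27.7 and 28.6 in deep ones. Within a rat the log2 ratio was higher in the superficial library by 0.30 ± 0.02 in epileptic and 0.34 ± 0.04 in control rats (SD, n = 3 each), and by 0.28 to 0.38 in single rats. The direction was the same in 6 of 6 rats (exact sign-flip permutation test, p = 0.031, the smallest possible). This ratio was formed because both genes were of interest, and its direction follows from theirs, so it adds no separate evidence. As the lengths of the transcripts differ, only its change between samples can be read, not its size.

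**Figure D3:**
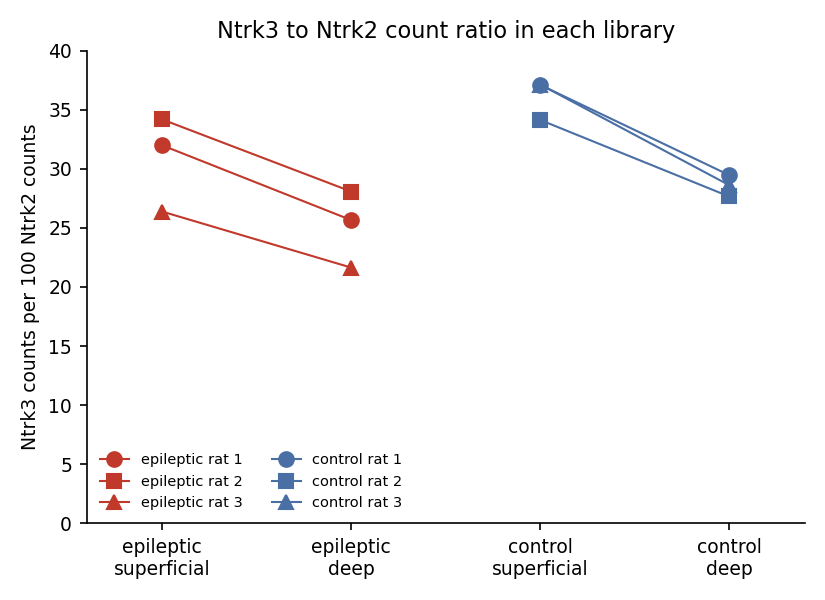
Ntrk3 reads per 100 Ntrk2 reads in each library, with lines joining the superficial and deep library of a rat (red epileptic, blue control). The lines fall from superficial to deep in all 6 rats, and the 2 libraries of epileptic rat 3, at 26.4 and 21.6, are the lowest of their sublayers.

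Between conditions, the ratio of Ntrk3 to Ntrk2 was lower in epileptic rats 1 and 3 than in every control rat in both sublayers, but not in epileptic rat 2. Averaged over both sublayers, the log2 ratio was −1.85 ± 0.19 in epileptic and −1.64 ± 0.06 in control rats (SD, n = 3 each; exact permutation test, p = 0.2). Bdnf counts per 100 Ntrk2 counts were 5.28 ± 2.14 in superficial and 4.74 ± 0.612 in deep epileptic libraries, against 5.55 ± 0.387 in superficial and 4.57 ± 0.560 in deep control libraries (SD, n = 3 each). The ligand-to-receptor ratio was higher in the superficial library in 4 of 6 rats (exact sign-flip permutation test, p = 0.219), and between conditions it gave p = 0.9 by exact permutation of the rats.

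Ntrk3 was lower in epileptic than in control rats in both sublayers, without passing the test across all identifiers. In superficial CA1 it averaged 156 ± 9.18 CPM in epileptic and 188 ± 4.64 CPM in control rats (SD, n = 3 each), and all 3 epileptic libraries lay below all 3 control libraries. In deep CA1 the means were 147 ± 5.81 CPM in epileptic and 167 ± 8.58 CPM in control rats (SD, n = 3 each), again with no overlap. The epileptic libraries lay below all control libraries for 14.5% of identifiers in superficial and 9.88% in deep CA1, so that such a separation was common.

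The log2 fold change of Ntrk3 was −0.25 in superficial CA1 (SE 0.08, interval −0.43 to −0.08, unadjusted p = 0.0106, adjusted p = 0.183) and −0.19 in deep CA1 (SE 0.09, interval −0.38 to 0.0046, unadjusted p = 0.0545, adjusted p = 0.378) with edgeR. In superficial CA1 edgeR called 2 of 14321 identifiers (0.0140%) and 2710 (18.9%) had an unadjusted p below 0.05. In deep CA1 it called 0 of 14261 (0.00%), with 1947 (13.7%) at an unadjusted p below 0.05, against 239 calls with the replicate number as a block, 376 with DESeq2 and 2171 with limma-voom with sample quality weights. DESeq2 called Ntrk3 in superficial CA1 (log2 fold change −0.25, adjusted p = 0.0376), among 885 calls in 14319 identifiers (6.18%). Over the alternatives that kept all libraries its adjusted p there ran from 0.0376 to 0.837, and from 0.132 to 0.646 in deep CA1.

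The share of alignments outside exons moved with condition in epileptic rats 2 and 3, and the Ntrk3 values were set against it. Epileptic rat 1, whose share lay within the control range, had 160 CPM in superficial and 147 CPM in deep CA1, below every control library of the same sublayer. Assigned reads and the assigned share of alignments were nonetheless higher in all epileptic libraries than in all control libraries, epileptic rat 1 included. The assigned share was 31.4 to 35.1% in epileptic and 28.6 to 30.8% in control libraries. Neither can be told apart from condition, and whether they bear on the Ntrk3 values was not tested. Without any 1 library the fold change of Ntrk3 stayed between −0.28 and −0.22 in superficial and between −0.23 and −0.16 in deep CA1. In a fit with the share outside exons as a term it was −0.22 in superficial and −0.16 in deep CA1 (adjusted p = 0.837 and 0.646). In epileptic rats 2 and 3 the share outside exons and the condition cannot be told apart. The fit with this term tested condition only, and whether the share outside exons bears on the Ntrk3 values was not tested. Averaged over both sublayers, Ntrk3 stood at 151 ± 7.42 CPM in epileptic and 178 ± 6.62 CPM in control rats (SD, n = 3 each), and an exact permutation test gave p = 0.1, the smallest value that 3 rats against 3 allow.

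**Figure D4:**
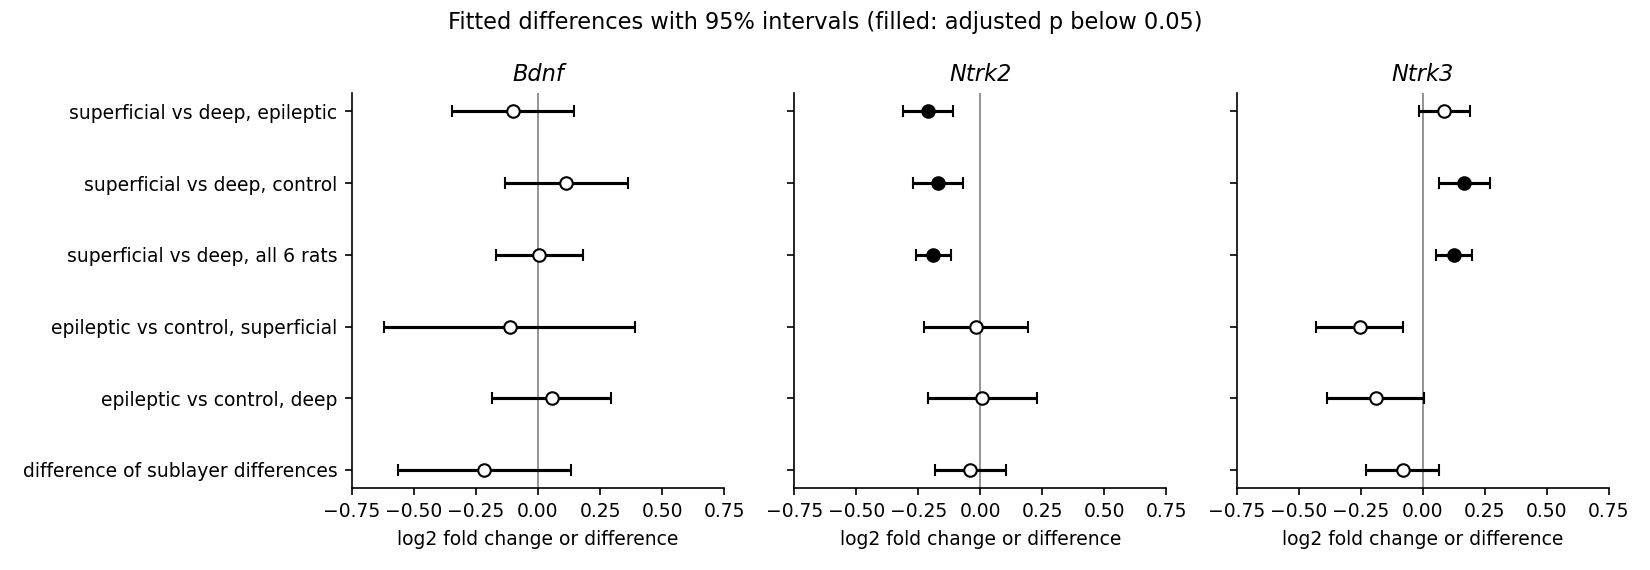
Fitted log2 fold changes of Bdnf, Ntrk2 and Ntrk3 with 95% intervals from edgeR's quasi-likelihood fits, for the sublayer comparisons (superficial over deep), the epilepsy comparisons (epileptic over control) and the difference between the 2 sublayer fold changes (epileptic minus control). Filled points passed an adjusted p of 0.05: Ntrk2 in all 3 sublayer comparisons, and Ntrk3 in control rats and over all 6 rats. The Ntrk3 epilepsy values, −0.25 and −0.19, are open.

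The order of group levels differed between the receptors. For Ntrk3 it ran, from high to low, control superficial, control deep, epileptic superficial and epileptic deep. The 2 control sublayers did not overlap, while control deep overlapped epileptic superficial and the 2 epileptic sublayers overlapped each other. For Ntrk2 the order was epileptic deep, control deep, control superficial and epileptic superficial, and the only neighbours without overlap were control deep and control superficial. The 2 control sublayers did not overlap for 21.7% of identifiers. For Bdnf all neighbouring groups overlapped.

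Ngfr, the gene of p75NTR, was at the limit of detection in every group. Superficial CA1 of epileptic rats 1, 2 and 3 gave 0, 4 and 1 reads and their deep libraries 1, 2 and 3 reads. Control rats 1, 2 and 3 gave 2, 2 and 3 reads in superficial and 4, 3 and 2 reads in deep libraries. In 10 of the 12 libraries the count was at or under 3 reads, about the largest expected count at which 0 reads could still be observed. Over the 12 libraries 3 reads equal 0.122 to 0.178 CPM. The 0 in epileptic rat 1 allows a level of up to 0.139 CPM.

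Summed over 3 libraries, Ngfr amounted to 0.0744 CPM in superficial and 0.0995 CPM in deep epileptic libraries (exact Poisson 95% intervals 0.0242 to 0.174 and 0.0365 to 0.217), against 0.120 CPM in superficial and 0.164 CPM in deep control libraries (0.0483 to 0.248 and 0.0750 to 0.312). All 4 intervals, which cover counting error only, overlap, and a difference was not detectable at this depth. Ngfr failed the filter on low counts in all comparisons, so no fold change is given. In the adult brain p75NTR is best known from cholinergic neurons of the basal forebrain, whose cell bodies lie outside the hippocampus.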

How the data were processed

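RNA-seq was analysed from 12 libraries, both CA1 sublayers of 3 epileptic and 3 control rats. Each library has its own deposited table of raw counts of reads per Ensembl gene. HTSeq 0.6.1, SAMtools 0.1.19, STAR 2.5.0c and FastQC 0.11.3 are listed with build Rnor_6.0, per the submitters' processing notes. Whether counting used strand was not given in the sources used here. Reads of overlapping or antisense genes may therefore be included.

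The 5 summary tallies were left out of library sizes: 28.6 to 35.1% of alignments were assigned to genes, 22.3 to 44.0% lay outside annotated exons, 25.2 to 45.6% were not unique and 0.207 to 0.300% ambiguous. Groups and replicate numbers came from the sample titles. The members, lists and tests were chosen with earlier results of these data known.

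Low counts were removed with filterByExpr (minimum count 10 and total 15), and the rest were scaled by TMM and tested with edgeR 4.0.16 in R 4.3.3 (quasi-likelihood, robust, Benjamini-Hochberg over all identifiers, threshold 0.05). Sublayers were compared in 1 fit of 12 libraries with a term per rat. Epilepsy was compared in the 6 libraries of each sublayer, and p-values there measure the spread between 3 rats and 3. SE is the absolute log2 fold change over the square root of F. Log2 CPM used a prior count of 2, and ratios between genes a pseudocount of 0.5 reads. The fits were also run on simulated counts, whose planted changes were all larger than those fitted here for the neurotrophin genes. Recovery of changes as small as these was therefore not tested. Deviations from group means correlated between the 2 sublayers of a rat (r = 0.316 to 0.770 over 6 rats), and both came from 1 brain. For libraries of different rats that share only a number, r was 0.105 to 0.245 in deep CA1. In superficial CA1 it was 0.0025 to 0.212, so the block is given beside the deep count. No 2 replicates of a group were duplicates (chi-square per identifier 6.85 to 115), and pairs across groups were not compared.

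Alternatives were DESeq2 1.42.0, limma 3.58.1 (voom with sample quality weights), RLE size factors, no filter, other libraries in the fit, the covariate and each rat or library left out. By rule, the 4 genes are named, and the identifier whose mean-centred log2 CPM profile lies nearest to that of a gene whose own range exceeds 1.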

Additional observations from a re-analysis of the deposited data

How the results depend on the processing

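Counting error was 0.912 to 1.96% per library for Ntrk2 and Ntrk3, and Ngfr cannot be compared at this depth. With libraries scaled by total gene counts the median identifier shifted by −0.12 in superficial and −0.16 in deep CA1 between epileptic and control rats. Ntrk3 averaged over both sublayers then fell by 0.37 on the log2 scale, Ntrk2 differed by −0.15 and Bdnf by −0.20, against −0.02 and −0.06 with TMM (exact permutation p = 0.1, 0.1 and 0.3, where 0.1 is the smallest possible). Bdnf in superficial against deep CA1 turned to 0.052, against −0.0032 with TMM.

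Without a replicate block the sublayer calls of Ntrk2 were lost, at −0.21 in epileptic rats, −0.17 in control rats and −0.19 over 6 rats (adjusted p = 0.605, 0.722 and 0.167), as were those of Ntrk3 at 0.17 in control rats and 0.13 over 6 rats (0.643 and 0.283). That fit called 5, 5 and 265 identifiers in epileptic, control and all rats. The replicate block in the epilepsy comparisons called 239 identifiers in deep CA1, called 25 in superficial CA1, and changed no call of the 3 genes.

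RLE size factors left Ntrk3 in control rats at 0.16, gave Bdnf −0.00018 over 6 rats and 8 calls between conditions in deep CA1. DESeq2 gave 0.16 and −0.0054 for these 2 values, −0.25 for Ntrk3 between conditions in superficial CA1, and 811, 815 and 1930 sublayer calls in epileptic, control and all rats, 2 for the difference of differences, 376 in deep and 885 in superficial CA1. limma-voom with quality weights turned Bdnf to 0.15 across sublayers in epileptic rats, 0.020 for the difference of differences and 0.17 between conditions in superficial CA1, and Ntrk2 to −0.061 in deep CA1. It called 2585 in epileptic and 2523 in control rats, 107, 2171 and 1789. With no low-count filter there were 1910 sublayer calls in control rats, 178 for the difference of differences, 103 in deep and 130 in superficial CA1. The 6 epileptic libraries alone gave 727 and the 6 control libraries alone 2375 sublayer calls. A term for the share outside exons gave 99 calls in deep CA1 and 5 in superficial CA1, against 0 and 2 in the main fits. Ntrk2 in deep CA1 was then at −0.048. All 12 libraries in 1 fit gave 48 and 279.

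Leaving out 1 rat moved the sublayer calls to 536 to 2217 in epileptic rats, 416 to 2071 in control rats and 1760 to 4093 in all rats, and the difference of differences to 0 to 84. Ntrk2 ran from −0.22 to −0.20, −0.21 to −0.14 and −0.21 to −0.17 in epileptic, control and all rats, and Ntrk3 from 0.07 to 0.10, 0.15 to 0.18 and 0.12 to 0.13. Bdnf ran from −0.35 to 0.059 in epileptic rats and −0.12 to 0.084 over all rats. Leaving out 1 library gave 0 to 552 calls in deep and 0 to 1443 in superficial CA1, with Bdnf at −0.013 to 0.12 and −0.42 to 0.053 and Ntrk2 at −0.069 to 0.064 and −0.089 to 0.033. The cause was not tested for any of these changes.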

Other observations

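The identifier closest to a gene was sought among 9393 identifiers with a mean log2 CPM of at least 3, by the mean absolute difference between the mean-centred log2 CPM profiles over the 12 libraries. Only Ngfr met the condition that its own log2 CPM vary by more than 1, with a range of 1.64 that comes from 0 to 4 reads, and its nearest identifier, ENSRNOG00000014840, differed by 0.21 on average. The other 3 genes fell short of that condition, and their nearest identifiers are given after their values were seen. ENSRNOG00000020333 lay nearest to Ntrk3 at a mean absolute difference of 0.02, ENSRNOG00000025324 to Ntrk2 at 0.04, and ENSRNOG00000027278 to Bdnf at 0.09. The mean absolute deviations of Ntrk3, Ntrk2 and Bdnf from their own means were 0.12, 0.099 and 0.15. Medians over all candidates were 0.16, 0.17 and 0.20, and a nearest identifier lies below them by construction. The 12 libraries come from 6 rats, and likeness of this kind says nothing of shared function.

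Ntrk2 and Ntrk3 had coefficients of variation below the median of the 9396 identifiers compared in each group, while Ngfr, at 0 to 4 reads, was not among these identifiers. Bdnf lay below the median in deep epileptic and superficial control libraries and above it in the other groups. The identifiers were not matched to these genes in level, and counting error is smaller at higher counts. The coefficient of variation of Ntrk3 was 5.90% in superficial and 3.97% in deep epileptic libraries, against 2.47% in superficial and 5.13% in deep control libraries. The medians over identifiers were 10.7% and 11.2% in the epileptic groups and 6.53% and 6.84% in the control groups. That of Ntrk2 was 7.61% in superficial and 9.38% in deep epileptic libraries, against 2.85% in superficial and 3.72% in deep control libraries.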
